A study of Mus musculus with 12 samples.

Results

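The genes described here are 33 nuclear genes of respiratory complexes II, III and IV, chosen by symbol from the deposited count table, which lists 54427 genes. All 33 were found once each, and all 33 passed the filter on low counts that left 17227 genes for testing. By role they are 4 subunits of complex II, 9 of complex III, cytochrome c (Cycs), 15 genes of complex IV and 4 complex IV assembly factors. The list is therefore wider than a list of subunits: Cycs encodes a mobile carrier, Cox7a2l a factor that joins complexes III and IV, and Cox10, Cox11, Cox15 and Cox17 proteins that build complex IV.

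The study profiled bulk RNA from mouse hippocampus in 12 libraries, 3 in each of 4 groups. WT mice carry neither transgene. The labels give the second group as 5xFAD, a transgenic model of Alzheimer's disease that makes mutant human amyloid precursor protein and presenilin 1. Ulk1OV mice overexpress Ulk1, a kinase that starts autophagy, and 5xFAD;Ulk1OV mice carry both. The sources used here do not give age, sex, strain or the promoters of the transgenes. Nothing in the labels ties a library to a separate animal, so a p-value here sets a difference against the spread among libraries, and that spread may be partly technical.

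The respiratory chain of the inner mitochondrial membrane passes electrons from food molecules to oxygen and pumps protons as it does so. Complex II, succinate dehydrogenase, takes electrons from the citric acid cycle and pumps no protons. Complex III passes electrons from ubiquinol to cytochrome c, and complex IV, cytochrome c oxidase, passes them on to oxygen. All complex II subunits are encoded in the nucleus, whereas complexes III and IV join nuclear subunits to a catalytic core made in the mitochondrion. Neurons depend on this chain for most of their ATP.

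Libraries held 16149992 to 18547132 counts, and a member totalled 295 to 139988 counts over the 12 libraries, so that counting error is small for all but the few least abundant members. Levels are CPM, counts scaled to a common library size by TMM. Ulk1 ran from 84.6 to 102 CPM in the libraries labelled Ulk1OV or 5xFAD;Ulk1OV and from 63.5 to 86.3 CPM in the others, which overlap. App, the mouse counterpart of a transgene in 5xFAD, measured 2667, 2346 and 2565 CPM in the 5xFAD libraries and 2587, 2201 and 1310.2 CPM in those labelled 5xFAD;Ulk1OV. The library labelled 5xFAD;Ulk1OV replicate 3 thus lay within the App range of the WT and Ulk1OV libraries, which was 1241 to 1493 CPM. Prnp, the prion protein gene, split the libraries in the same way, at 2509.7, 2142 and 2376 CPM in 5xFAD and 2202, 2067 and 954 CPM in those labelled 5xFAD;Ulk1OV. The label of that library could not be settled from these data, so the edgeR count of members called is also given without it in every comparison.

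The 9 members called in any comparison are spread over the genome (GRCm38, GENCODE M21): Sdhd at chr9:50596357-50603812, Uqcrfs1 at chr13:30540308-30545362, Uqcrh at chr4:116066965-116075071, Uqcr11 at chr10:80402997-80406830, Cyc1 at chr15:76343523-76346260, Cox6b1 at chr7:30616861-30626151, Cox6b2 at chr7:4751792-4753094, Cox7c at chr13:86044816-86046904 and Cox11 at chr11:90638173-90644931. Per kilobase of the principal transcript, the members in WT spanned a wide range. Cox8a, a small membrane subunit of complex IV, stood at 852 ± 67.4 CPM per kb (SD, n = 3), and Cox4i1, its largest nuclear-encoded subunit, at 816 ± 36.6. The interval between this pair was smaller than the spread of Cox8a. The most abundant member of complex III was Uqcrh at 293 ± 3.92 CPM per kb, and that of complex II was Sdha, the flavoprotein that oxidises succinate, at 149 ± 3.92. Cycs stood at 37.6 ± 3.53 CPM per kb over a long transcript. The lowest levels belonged to Cox4i2 at 1.76 ± 0.762 and Cox17 at 0.837 ± 0.0604 CPM per kb. The Cox17 value is over a transcript of 3690 bases, so its rank depends on the transcript chosen. Cox17 shares 257 exonic bases (4.5% of its own) with a gene on the same strand, Gm21987, listed at 0 to 0.11 CPM, so its count is uncertain.

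Promoter sequence is shown for Uqcr11, Uqcrh and Sdhd, the 3 members with the smallest p in the interaction described below. It is also shown for Cox7c, the only member called higher in Ulk1OV against WT in the main edgeR fit. Nuclear respiratory genes are known targets of the factors NRF1, GABP (an ETS factor), YY1 and ERR alpha. Each run is 120 bases that end before the RefSeq start of the gene, on the strand of the gene, from RefSeq on GRCm38.p6, the build called mm10 in the submitters' processing notes. Capitals mark, on either strand, CCGGAAG (ETS), AAGATGG (YY1) or the NRF1 letters, which are GCGC and TGCGC with any base between them. All 4 genes lie on the minus strand: Uqcr11 at chr10:80406831-80406950, Uqcrh at chr4:116075072-116075191, Sdhd at chr9:50603850-50603969 and Cox7c at chr13:86046905-86047024.
Uqcr11: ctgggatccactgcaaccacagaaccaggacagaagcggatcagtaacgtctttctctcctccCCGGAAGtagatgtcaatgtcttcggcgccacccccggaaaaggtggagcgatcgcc
Uqcrh: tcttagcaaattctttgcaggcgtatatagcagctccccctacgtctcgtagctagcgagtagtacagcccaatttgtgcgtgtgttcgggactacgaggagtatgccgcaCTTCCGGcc
Sdhd: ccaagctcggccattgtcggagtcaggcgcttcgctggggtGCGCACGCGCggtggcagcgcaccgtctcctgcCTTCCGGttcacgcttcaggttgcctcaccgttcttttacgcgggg
Cox7c: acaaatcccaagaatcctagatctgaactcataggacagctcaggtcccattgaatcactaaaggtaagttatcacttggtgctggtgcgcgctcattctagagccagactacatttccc
The Uqcr11 run holds the ETS letters and the Uqcrh and Sdhd runs hold their reverse complement, while Sdhd also holds an NRF1 match. The Cox7c run holds none of these 3 motifs, but the longer Cox7c window of 300 bases, described below, holds 1 YY1 match.

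Windows of 300 bases, 250 before the start and 50 after it, were found for 23 of the 33 members. The end of the window lay in a GENCODE transcript of the gene for 20 of the 23. For Sdhd, Cox5a and Cycs it did not, so the position of those windows is less certain. The ETS letters were in 9 of the 23 windows (39.1%), against 14.8% of the windows of all genes tested and 8.86% of all 32851 windows. NRF1 letters were in 4 (17.4%, against 8.54% of tested genes and 4.6% of all windows) and YY1 letters in 2 (8.7%, against 6.45% and 6.34%). GGGCGG, the letters of SP1, were in 10 (43.5%), fewer than the 58.6% of tested genes. TCAAGGTCA, the letters of ERR alpha, were in 1 window, that of Sdhd (4.35%, against 0.287% of tested genes and 0.423% of all windows). These matches describe letters, not binding.

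In 5xFAD against WT hippocampus, most members were lower, but none passed the test. The fold change was below 0 in 29 of 33 (49.5% of all genes) and above 0 in 4 (50.5% of all genes), with a median of -0.17 on the log2 scale against 0.00 over all genes tested. By the quasi-likelihood test of edgeR (Benjamini-Hochberg adjustment), 0 of 33 members were called at an adjusted p under 0.05, as were 0 of 17227 genes (0%). At an unadjusted p under 0.05, 9 members were lower and 0 higher, where 6.41% of all genes were lower and 6% higher. All 3 5xFAD libraries lay below all 3 WT libraries in 15 members (45.5%), against 9.05% of all genes, and above them in 2, against 10.5%.

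Cox6b2, the testis isoform of a complex IV subunit, had the smallest p. It measured 4.41, 3.92 and 6.64 CPM in the 3 WT libraries and 1.47, 1.85 and 2.21 CPM in the 5xFAD libraries. The groups did not overlap, and the log2 fold change was -1.43 ± 0.25 (SE, adjusted p = 0.111).
Uqcr11, a small accessory subunit of complex III, measured 106, 95.5 and 99.6 CPM in WT and 68.6, 52.8 and 61.4 CPM in 5xFAD. Every 5xFAD library was below every WT library, and the log2 fold change was -0.72 ± 0.15 (adjusted p = 0.151). Sdhd, a membrane anchor of complex II, measured 97.4, 102 and 98.3 CPM in WT and 83.6, 73.8 and 76.7 CPM in 5xFAD, again without overlap. Its log2 fold change was -0.35 ± 0.08 (adjusted p = 0.214).

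Medians in this comparison were -0.11 for complex II, -0.20 for complex III and -0.17 for complex IV. The core proteins of complex III, Uqcrc1 and Uqcrc2, were near WT (-0.05 ± 0.08 and 0.04 ± 0.08), as was Cox4i1 (-0.01 ± 0.12). The members above 0 were Uqcrc2, Cox4i2, Cox6a2 and Cox17. After a loess correction that takes out how each library depends on GC content and transcript length, 22 members were below 0 and 11 above, with a median of -0.11, and Cox4i1 (0.20 ± 0.09) and Uqcrc1 (0.09 ± 0.08) were among those that turned. DESeq2 called 4 members, Cox6b2, Sdhd, Uqcr11 and Uqcrh, all lower, where it called 0.835% of the genes it tested. A fit without a filter on low counts called 5, and its share of all genes is not given here. With the library labelled 5xFAD;Ulk1OV replicate 3 left out of the shared fit, edgeR called 0 members and 0.017% of all genes.

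**Figure D1:**
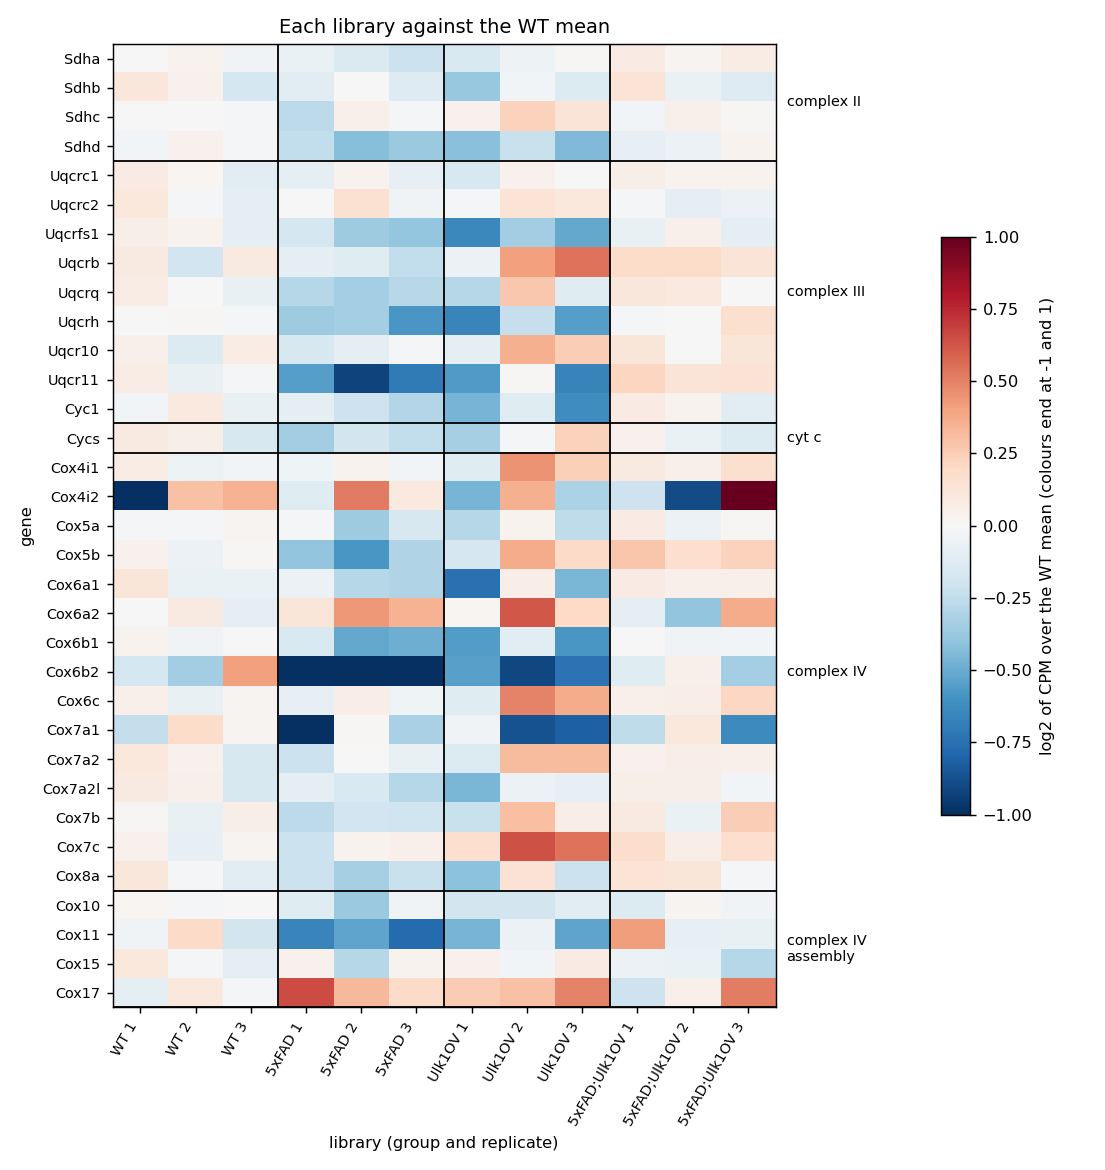
Rows are the 33 genes grouped by complex and columns the 12 libraries; colour gives log2 of each library's CPM over the WT mean, with colours ending at -1 and 1. The 5xFAD columns are mostly blue, the Ulk1OV columns differ among themselves, and the 5xFAD;Ulk1OV columns are close to WT or slightly red.

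In 5xFAD;Ulk1OV against 5xFAD, 29 of 33 members had higher means and 4 lower, where all genes split into 49.8% and 50.2%. The median log2 fold change was 0.20 against 0.00 over all genes. Under the loess correction the split was 21 higher and 12 lower, with a median of 0.05. Again edgeR called 0 of 33, where it called 8 of all genes tested (0.0464%), each of them higher. At an unadjusted p under 0.05, 13 members were higher and 0 lower, where 8.36% of all genes were higher and 9.07% lower. All 5xFAD;Ulk1OV libraries lay above all 5xFAD libraries in 20 members (60.6%), against 10.7% of all genes. This comparison shares the 5xFAD libraries with the one above, so a low 5xFAD value enters both.

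Uqcr11 was at 116, 109.8 and 111 CPM in 5xFAD;Ulk1OV, above all of the 5xFAD libraries given above, with a log2 fold change of 0.88 ± 0.15 (adjusted p = 0.0526). Cox5b, a zinc-binding subunit of complex IV that faces the matrix, measured 123, 108 and 131 CPM in 5xFAD and 195, 182 and 189 CPM in 5xFAD;Ulk1OV. Those groups did not overlap, and the log2 fold change was 0.64 ± 0.12 (adjusted p = 0.0547). In WT, Cox5b was at 167, 155 and 162 CPM, below each of the 5xFAD;Ulk1OV libraries. Cox6b2 was at 4.58, 5.17 and 3.95 CPM in 5xFAD;Ulk1OV, with a log2 fold change of 1.31 ± 0.25 (adjusted p = 0.0597).

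The count of calls here turned on the test and on single libraries. DESeq2 called 7 members, all higher, where it called 5.45% of the genes it tested. With edgeR, 2 were called (Cox5b and Uqcr11) without 5xFAD replicate 1 (1.48% of all genes called) or without Ulk1OV replicate 1 (0.437%), and 5 without Ulk1OV replicate 2 (0.964%), a library outside the comparison that enters through the shared estimate of spread. Without the library labelled 5xFAD;Ulk1OV replicate 3, 0 members were called, and 0.0682% of all genes.

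In Ulk1OV against WT, the members split. Sdhd, Uqcrfs1 and Uqcrh fell and Cox7c rose, which makes 4 of 33 called (12.1%), where 5.17% of all genes were called. Of all genes, 3.04% fell and 2.14% rose, against 3 and 1 members. Fold changes were below 0 in 20 members (49.6% of all genes) and above 0 in 13 (50.4% of all genes), with a median of -0.06 against 0.00 over all genes; without Ulk1OV replicate 1 the median was 0.02. The libraries of the groups did not overlap in 7 members that were lower (21.2%, against 14.5% of all genes) and 3 that were higher (9.09%, against 15%).

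Uqcrfs1, the Rieske iron-sulfur protein of complex III, measured 171, 169 and 154 CPM in WT and 105, 129 and 116 CPM in Ulk1OV. Every Ulk1OV library was below every WT library, with a log2 fold change of -0.50 ± 0.09 (adjusted p = 0.0249). Uqcrh, the hinge protein at the docking site of cytochrome c, measured 161, 162 and 158 CPM in WT and 102, 137 and 109 CPM in Ulk1OV. It also separated the groups, with a log2 fold change of -0.47 ± 0.11 (adjusted p = 0.0319). Processed copies of Uqcrh in the table, Uqcrh-ps1 and Uqcrh-ps2, held 0 to 0.17 CPM, and reads shared with such copies make its count uncertain. Sdhd measured 74.3, 85.2 and 72.9 CPM in Ulk1OV, below the WT libraries given above, with a log2 fold change of -0.36 ± 0.08 (adjusted p = 0.0319).

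Cox7c, a small membrane subunit of complex IV, went the other way. It measured 237, 217 and 234 CPM in WT and 257, 357 and 335 CPM in Ulk1OV, with a log2 fold change of 0.46 ± 0.11 (adjusted p = 0.0389). The lowest Ulk1OV library was still above the highest WT library. In 5xFAD, Cox7c was at 198, 235 and 237 CPM, overlapping WT. In 5xFAD;Ulk1OV its mean was 109.8% of WT, and those libraries overlapped Ulk1OV. Several other small subunits had higher means in Ulk1OV without passing the test, among them Uqcrb (0.32 ± 0.13, adjusted p = 0.146) and Cox6c (0.27 ± 0.13, adjusted p = 0.210).

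The Ulk1OV libraries were the most spread group, with a median coefficient of variation over members of 17.1%, against 4.76% to 8.11% in the other groups. Ulk1OV replicate 2 was the highest of the 3 in 24 of 33 members and Ulk1OV replicate 1 the lowest in 24. Leaving out Ulk1OV replicate 2 gave 7 calls, all lower, and lost Cox7c, with 5.82% of all genes called. Leaving out Ulk1OV replicate 3, WT replicate 1 or WT replicate 2 gave 0 calls each, and 0% of all genes. Leaving out WT replicate 3 gave 1 (Uqcrfs1; 2.52% of all genes), and leaving out Ulk1OV replicate 1 gave 4 (2.8% of all genes), of which 2 were shared (Cox7c and Uqcrfs1). Cox7c was also lost, leaving 3, without 5xFAD replicate 3 or without replicate 1 or 2 of 5xFAD;Ulk1OV (2.8% to 3.36% of all genes). Without the library labelled 5xFAD;Ulk1OV replicate 3, the 4 calls were the same genes, beside 6.72% of all genes. Under the loess correction, 3 members rose (Cox4i1, Cox7c and Uqcr10) and the same 3 fell, where 3.8% of all genes were called.

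In 5xFAD;Ulk1OV against Ulk1OV, Sdhd, Uqcr11, Uqcrfs1 and Uqcrh rose and 0 members fell. The 4 of 33 (12.1%) compare with 6.1% of all genes called, 3.67% rising and 2.43% falling. Fold changes were above 0 in 21 members (48.4% of all genes) and below 0 in 12 (51.6% of all genes), with a median of 0.11 against -0.01 over all genes. The loess correction left 18 above 0 and 15 below, with a median of 0.06. At an unadjusted p under 0.05, 9 members differed, 8 of them higher (27.3%, against 24.8% of all genes in either direction). All 5xFAD;Ulk1OV libraries lay above all Ulk1OV libraries in 9 members (27.3%, against 14.2% of all genes) and below them in 1 (3.03%, against 13.4%), Cox15, which acts in heme A synthesis. This comparison shares the Ulk1OV libraries with the one above.

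Uqcrfs1 was at 157, 170.5 and 155 CPM in 5xFAD;Ulk1OV, with a log2 fold change over Ulk1OV of 0.46 ± 0.09 (adjusted p = 0.0197). Uqcrh was at 158, 160.3 and 179.8 CPM, with a log2 fold change of 0.52 ± 0.11 (adjusted p = 0.0198). Sdhd was at 93.9, 95.5 and 102 CPM, with a log2 fold change of 0.33 ± 0.08 (adjusted p = 0.0348). In these 3 genes the 5xFAD;Ulk1OV libraries were all above the Ulk1OV libraries and overlapped WT. Uqcr11, at 67.8, 101 and 63.1 CPM in Ulk1OV, had a log2 fold change of 0.54 ± 0.15 (adjusted p = 0.0482), which became 0.19 ± 0.09 (adjusted p = 0.265) under the loess correction.

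Calls in this comparison rested on few libraries. Without replicate 1 or 2 of 5xFAD;Ulk1OV, or replicate 3 of Ulk1OV, 0 members and 0% of all genes were called. Without Ulk1OV replicate 1, only Cox7c was called, as lower (2.19% of all genes); without WT replicate 1, WT replicate 2 or 5xFAD replicate 3, 2 were called (Uqcrfs1 and Uqcrh; 3.72% to 4.63% of all genes), and without WT replicate 3 Uqcr11 was lost (5.15% of all genes). Without the library labelled 5xFAD;Ulk1OV replicate 3, 3 were called, Cyc1, Uqcrfs1 and Uqcrh, beside 8.97% of all genes. Without Ulk1OV replicate 2, 8 were called (9.23% of all genes), and without 5xFAD replicate 1, 6 (7.74%). The corrected fit called 3 members as higher (Sdhd, Uqcrfs1 and Uqcrh) and 3 as lower (Cox4i1, Cox7c and Uqcr10), where it called 3% of all genes.

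**Figure D2:**
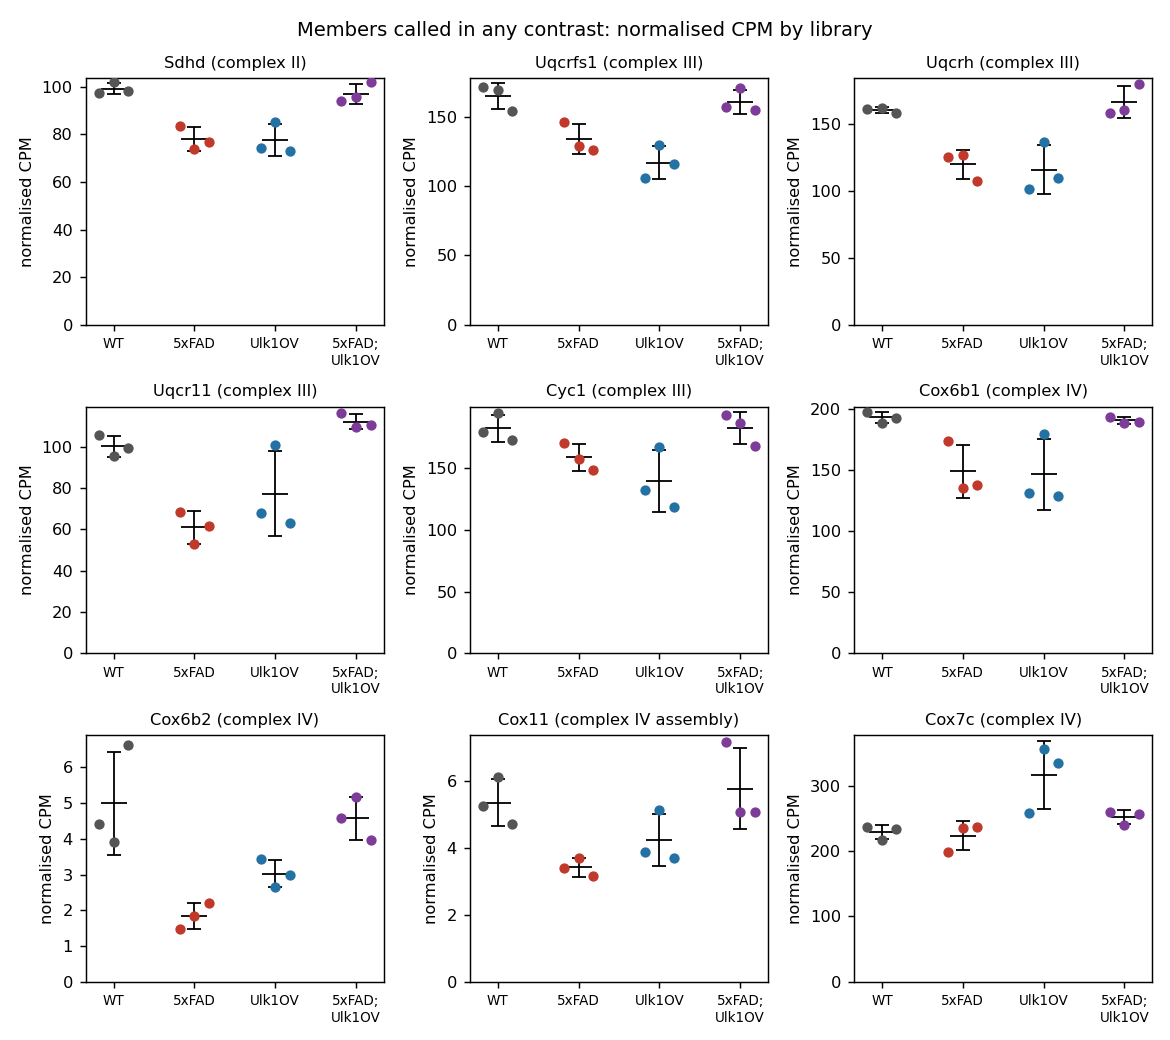
Each panel shows 1 gene, with normalised CPM on the vertical axis from 0, a point for each library and bars for the mean and SD of 3 libraries per group. In 8 of the 9 panels the 5xFAD and Ulk1OV means lie below the WT mean and the 5xFAD;Ulk1OV mean lies near it. In the Cox7c panel the Ulk1OV mean is the highest, and the Ulk1OV libraries overlap those of 5xFAD;Ulk1OV.

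The interaction asks whether the 5xFAD;Ulk1OV libraries differ from what the separate 5xFAD and Ulk1OV effects would add up to on the log2 scale. It was above 0 in 8 called members and below 0 in 0 called members. These 8 are 24.2% of the 33, where 12.8% of all genes were called, 6.8% above 0 and 5.96% below. Complex III held 4 of its 9 (Uqcrh, Uqcr11, Uqcrfs1 and Cyc1), complex II 1 of 4 (Sdhd), complex IV 2 of 15 (Cox6b1 and Cox6b2) and the assembly factors 1 of 4 (Cox11). The median over the 33 was 0.26, against -0.01 over all genes. The sign follows from group means: in 19 members both 5xFAD and Ulk1OV lay below WT, and in 21 the 5xFAD;Ulk1OV mean lay above both of them.

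Uqcrh had the smallest p, with an interaction of 0.94 ± 0.15 (adjusted p = 0.00543). Its 5xFAD libraries measured 125, 127 and 107 CPM, below WT like those of Ulk1OV, at group means of 74.7% and 72.1% of WT, while 5xFAD;Ulk1OV stood at 104% of WT. Uqcr11 had an interaction of 1.26 ± 0.21 (adjusted p = 0.00590), with means of 60.8%, 77.2% and 112% of WT in 5xFAD, Ulk1OV and 5xFAD;Ulk1OV. In Uqcr11 the second Ulk1OV library, at 101 CPM, lay within the WT range. Sdhd had an interaction of 0.67 ± 0.12 (adjusted p = 0.00639) and group means of 78.7%, 78.1% and 97.9% of WT. Uqcrfs1 measured 146, 129 and 126 CPM in 5xFAD, with an interaction of 0.76 ± 0.13 (adjusted p = 0.00639).

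Cyc1 encodes cytochrome c1, the subunit that hands electrons to cytochrome c. It measured 179, 195 and 173 CPM in WT, 170.4, 158 and 149 with 5xFAD, 132, 167 and 119 with Ulk1OV and 193, 187 and 168 with both. Both the 5xFAD and the Ulk1OV libraries lay below WT without overlap, and the interaction was 0.59 ± 0.16 (adjusted p = 0.0319).
Cox6b1, which sits at the interface of the complex IV dimer, measured 198, 189 and 193 CPM in WT, 174, 135 and 138 with 5xFAD, 131, 179.9 and 129 with Ulk1OV and 194, 189 and 189.5 with both. Its 5xFAD and Ulk1OV libraries were all below WT and below 5xFAD;Ulk1OV, and the interaction was 0.75 ± 0.18 (adjusted p = 0.0172). Cox6b2 measured 3.43, 2.65 and 3.0 CPM in Ulk1OV, between 5xFAD and WT, and its interaction was 2.03 ± 0.35 (adjusted p = 0.00662) at a low level. Cox11, which delivers copper to the catalytic core, measured 5.23, 6.10 and 4.71 CPM in WT, 3.39, 3.71 and 3.14 with 5xFAD, 3.87, 5.13 and 3.70 with Ulk1OV and 7.15, 5.06 and 5.07 with both. The 5xFAD libraries were all below WT, the Ulk1OV libraries overlapped both of those groups, and the interaction was 1.09 ± 0.30 (adjusted p = 0.0310).

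Cox11 shares 48.3% of its exonic bases with Tom1l1 on the opposite strand, and the sources used here do not say whether counting used strand. Reads of the pair cannot be told apart without it. Tom1l1 ran from 23.0 to 32.1 CPM, above Cox11, and its own interaction was -0.11 ± 0.17 (adjusted p = 0.715).

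Members outside the 8 differed among themselves. Complex II subunits other than Sdhd had interactions of 0.26 ± 0.11 (Sdha), 0.24 ± 0.15 (Sdhb, the iron-sulfur subunit) and -0.05 ± 0.12 (Sdhc, the other membrane anchor). In complex III, the core proteins stood at 0.13 ± 0.12 (Uqcrc1) and -0.18 ± 0.12 (Uqcrc2), Uqcrq at 0.39 ± 0.16, and Uqcrb and Uqcr10 at -0.01 ± 0.18 and -0.01 ± 0.15. In complex IV, Cox5b (0.50 ± 0.17, adjusted p = 0.0650), Cox8a (0.48 ± 0.17, adjusted p = 0.0828) and Cox6a1 (0.61 ± 0.22, adjusted p = 0.0836) came closest to the threshold. Cox4i1 (-0.10 ± 0.16), Cox6c (-0.14 ± 0.18), Cox7a2 (-0.03 ± 0.16) and Cox7c (-0.29 ± 0.16) were below 0. Cox5a (0.34 ± 0.14), Cox7b (0.25 ± 0.16) and Cox7a2l (0.40 ± 0.15) were above 0, as were Cycs (0.23 ± 0.17) and Cox10 (0.29 ± 0.15), which makes the first intermediate of heme A. Cox15 (-0.10 ± 0.16) and Cox17 (-0.61 ± 0.32), a copper chaperone, were below 0. Estimates within a complex, whose subunits assemble together, were thus of either sign, and none of these members was called.

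**Figure D3:**
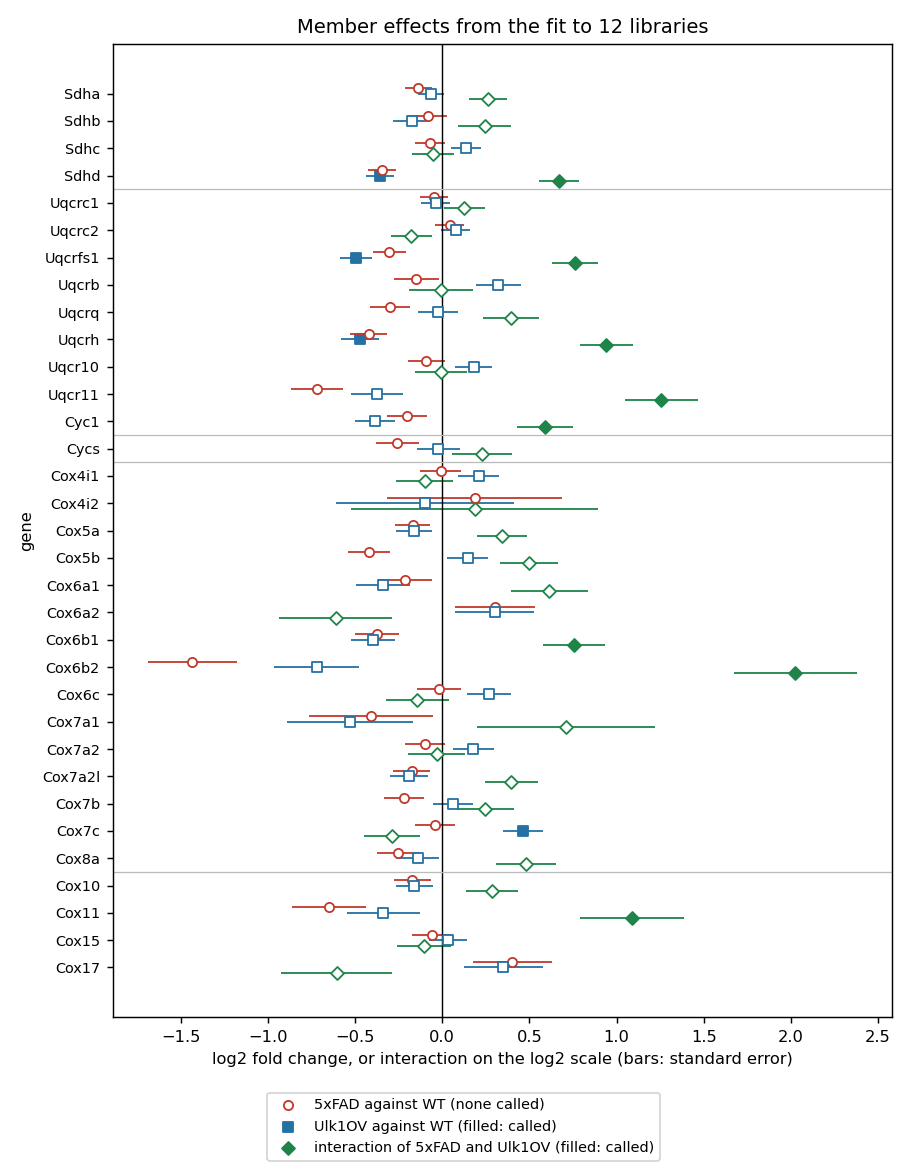
Points give the log2 fold change of 5xFAD and of Ulk1OV against WT and the interaction for each of the 33 genes, with bars for the standard error and filled symbols for genes called. The 5xFAD points lie mostly left of 0 and none is filled, the Ulk1OV points fall on either side, and the 8 filled interaction points are all to the right of 0.

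Among the 8 calls, Cox6b2, Sdhd, Uqcr11, Uqcrfs1 and Uqcrh were called with each of the 12 libraries left out in turn. Without Ulk1OV replicate 3, only these 5 were called (15.2% of members, against 5.53% of all genes), and without Ulk1OV replicate 2, 13 were called (39.4%, against 14.7%). Without the library labelled 5xFAD;Ulk1OV replicate 3, the calls were the same 8 genes (24.2%, against 14.4%). Cyc1 was lost in 8 of the 12 leave-outs, being called without 5xFAD replicate 1, Ulk1OV replicate 2, WT replicate 3 or the library labelled 5xFAD;Ulk1OV replicate 3. Cox11 was lost in 6, namely without 5xFAD replicate 3, Ulk1OV replicate 1 or 3, WT replicate 1 or 2, or 5xFAD;Ulk1OV replicate 1.

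Transcript length and base composition moved with these results. Across all 17111 genes tested with a transcript, the interaction correlated with GC content at r = 0.407 and with log2 length at r = -0.174, and across the 33 members at 0.324 and -0.311; these are across genes, which are not independent replicates. Member transcripts have a median length of 865 bases, against 2839 over all genes tested, and a median GC content of 49.9%, against 50.1%. Under the loess correction, 11 members were called, 9 above 0 and 2 below, where 5.51% of all genes were called. The median over members became 0.11. The split stayed at 22 above and 11 below 0, but Cox8a (-0.09 ± 0.10), Uqcrc1 (-0.24 ± 0.12), Sdhb (-0.05 ± 0.12) and Cox4i2 (-0.23 ± 0.72) turned below 0, and Uqcrc2, Sdhc, Uqcrb and Cox15 turned above it, none of them called. Of the 8, 6 were still called: Uqcrfs1 at 0.77 ± 0.12, Uqcrh at 0.74 ± 0.11, Sdhd at 0.63 ± 0.11, Uqcr11 at 0.65 ± 0.13, Cox6b1 at 0.53 ± 0.14 and Cox6b2 at 1.55 ± 0.38. Cyc1 became 0.31 ± 0.12 (adjusted p = 0.163) and Cox11 1.04 ± 0.28 (adjusted p = 0.0507). The correction added Cycs, Cox7b and Sdha above 0, and below 0 it added Cox4i1 at -0.59 ± 0.13 (adjusted p = 0.0222) and Uqcr10 at -0.50 ± 0.12 (adjusted p = 0.0351).

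**Figure D4:**
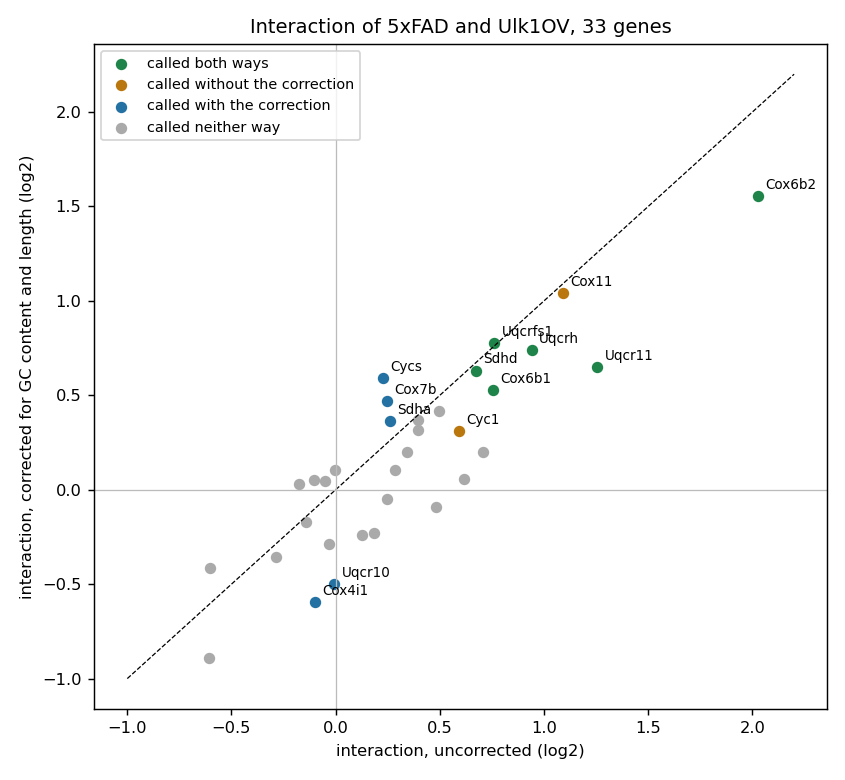
Each point is 1 of the 33 genes, with the uncorrected interaction (log2) on the horizontal axis and the interaction after the loess correction on the vertical axis; the dashed line marks equal values. Uqcr11 falls from 1.26 to 0.65, while Uqcrfs1 and Sdhd lie near the line.

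Complex IV has isoform pairs in which 1 member is widespread and the other is restricted. Cox4i2 is known from lung and from mural cells of brain vessels, Cox6a2 and Cox7a1 from heart and skeletal muscle, and Cox6b2 from testis. Per length, Cox4i2 made up 0.218% ± 0.100 (SD, n = 3) of its pair with Cox4i1 in WT, Cox6a2 0.746% ± 0.0744 of its pair with Cox6a1, Cox7a1 2.23% ± 0.414 of its pair with Cox7a2, and Cox6b2 2.65% ± 0.741 of its pair with Cox6b1. In each of the 4 pairs the widespread isoform was thus far above the other. The Cox6b2 share was 1.32% ± 0.399 with 5xFAD, 2.21% ± 0.600 with Ulk1OV and 2.47% ± 0.327 with both.

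Cox6a2 measured 4.0, 4.25 and 3.74 CPM in WT, 4.35, 5.39 and 5.07 with 5xFAD, 4.06, 6.14 and 4.58 with Ulk1OV and 3.74, 3.04 and 5.18 with both. It was above WT without overlap in 5xFAD, opposite to its partner, and was not called (interaction -0.61 ± 0.32, adjusted p = 0.228). Cox6a1 measured 488, 427 and 429 CPM in WT, 429.8, 368 and 363 with 5xFAD, 268, 469 and 326 with Ulk1OV and 475, 465 and 465 with both, and its Ulk1OV libraries were the most spread.
Cox7a1 measured 1.47, 1.96 and 1.76 CPM in WT, 0.791, 1.74 and 1.38 with 5xFAD, 1.68, 0.944 and 0.981 with Ulk1OV and 1.45, 1.86 and 1.11 with both, and every pair of groups overlapped. Cox4i2 measured 0.647, 1.58 and 1.64 CPM in WT, 1.19, 1.85 and 1.38 with 5xFAD, 0.936, 1.65 and 1.04 with Ulk1OV and 1.12, 0.693 and 2.89 with both, again with overlap. At these levels the standard errors of the interaction were large (0.71 ± 0.51 for Cox7a1 and 0.19 ± 0.71 for Cox4i2). Their partners were far more abundant: Cox4i1 measured 656, 603 and 614 CPM in WT, 607, 639 and 614 with 5xFAD, 575, 854 and 736 with Ulk1OV and 663, 646 and 698 with both. Cox7a2 measured 138, 132 and 115 CPM in WT, 110.3, 128 and 122 with 5xFAD, 116, 159 and 159.6 with Ulk1OV and 132, 134 and 133 with both. In both partners the highest 2 of the 12 libraries were Ulk1OV replicates 2 and 3.

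Summed over genes, the 9 complex III members stood at 1422 ± 56.3 CPM in WT, 1244 ± 39.0 with 5xFAD, 1295 ± 154 with Ulk1OV and 1458 ± 18.9 with both (SD, n = 3). The 4 complex II members stood at 766 ± 24.7, 693 ± 18.8, 719 ± 43.9 and 782 ± 14 CPM in the same order. In both complexes the 5xFAD libraries lay below the WT libraries without overlap. The 15 complex IV genes summed to 2938 ± 135 CPM in WT, 2642 ± 31.4 with 5xFAD, 3001 ± 572 with Ulk1OV and 3118 ± 51.3 with both, and the Ulk1OV libraries covered the range of all other groups.

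Complex IV also has a core encoded in the mitochondrial genome, mt-Co1, mt-Co2 and mt-Co3. The mean of mt-Co1 was above WT in both groups in which most nuclear members had lower means, but mt-Co1 was not called there. In Ulk1OV the mean nuclear complex IV sum was not below WT. mt-Co1 made up nearly all of the counts for these 3 genes, with mt-Co2 and mt-Co3 at 35.0 to 173 CPM. It measured 16709, 15435 and 15338 CPM in WT, 19432, 22519 and 17667 with 5xFAD, 19659, 27185 and 23274 with Ulk1OV and 12063, 11718 and 17404 with both. Each 5xFAD and Ulk1OV library was above each WT library, which held for 10.5% and 15% of all genes. The log2 fold change against WT was 0.33 ± 0.16 (adjusted p = 0.424) with 5xFAD and 0.56 ± 0.16 (adjusted p = 0.0563) with Ulk1OV. In 5xFAD;Ulk1OV against Ulk1OV, mt-Co1 fell by a log2 fold change of -0.77 ± 0.16 (adjusted p = 0.0198). Its interaction was -1.10 ± 0.23 (adjusted p = 0.0105), and that of mt-Co3 was -1.60 ± 0.45 (adjusted p = 0.0353). Without the library labelled 5xFAD;Ulk1OV replicate 3, the interaction of mt-Co1 was -1.28 ± 0.19 (adjusted p = 0.00297). In that fit mt-Co1 was called higher in Ulk1OV against WT (0.55 ± 0.12, adjusted p = 0.0253), which it was not in the main fit. Its values in the other alternative fits are not given here. The ratio of the mitochondrial to the nuclear complex IV sum was 5.43 ± 0.0278 in WT, 7.59 ± 0.937 with 5xFAD, 7.87 ± 0.263 with Ulk1OV and 4.43 ± 0.988 with both. The library labelled 5xFAD;Ulk1OV replicate 3 was the highest of its group at 5.58, against 3.86 in each of the other two.

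**Figure D5:**
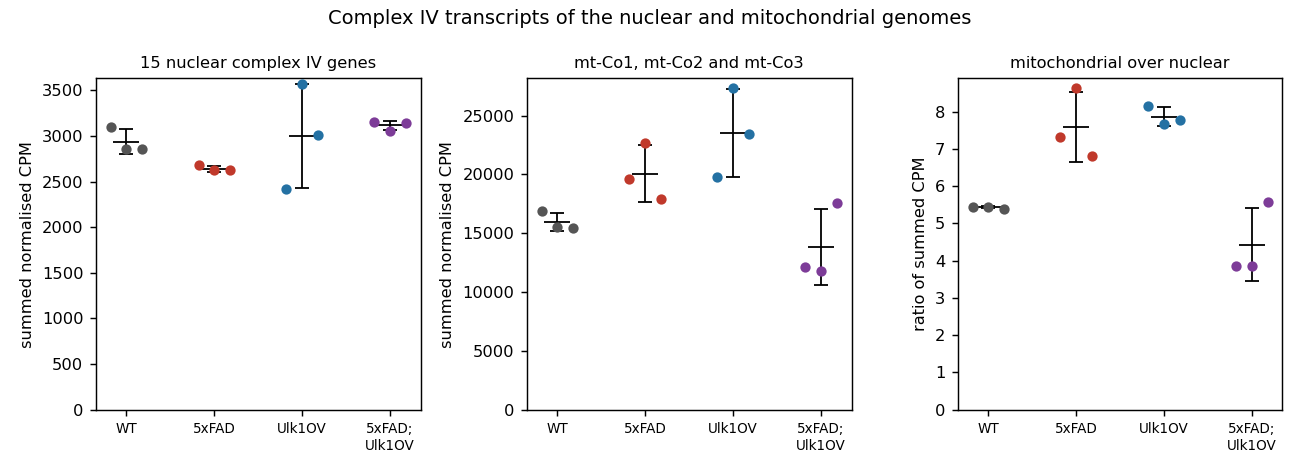
Panels show the summed CPM of the 15 nuclear complex IV genes, the summed CPM of mt-Co1, mt-Co2 and mt-Co3, and their ratio, with a point per library and bars for the mean and SD of 3 libraries. The ratio lies between 6.82 and 8.63 in the 5xFAD and Ulk1OV libraries and between 3.86 and 5.58 in the others.

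Other genes of the pathway were taken from lists chosen with earlier results of these data known. In the interaction, where 6.8% of all genes were called above 0 and 5.96% below, 12 of 36 nuclear complex I subunits were called above 0 and 1 below, led by Ndufa1 (1.52 ± 0.18, adjusted p = 0.00275) and Ndufa2 (1.51 ± 0.20, adjusted p = 0.00275). Of 15 ATP synthase subunits, 5 were called above 0 and 0 below, with Atp5k at 4.14 ± 0.45 (adjusted p = 0.00275) and Atp5e at 1.54 ± 0.19 (adjusted p = 0.00275). The median interaction was 0.31 in complex I and 0.25 in ATP synthase, beside 0.26 in the 33 members. Complex I also held 2 calls in 5xFAD;Ulk1OV against 5xFAD, Ndufa1 (0.87 ± 0.13, adjusted p = 0.0465) and Ndufa2 (0.94 ± 0.14, adjusted p = 0.0465), both higher. These compare with 0.0464% of all genes. Complex I held 4 calls in Ulk1OV against WT, all lower (3.04% of all genes), and 5 in 5xFAD;Ulk1OV against Ulk1OV, all higher (3.67% of all genes). ATP synthase held 0 calls in 5xFAD;Ulk1OV against 5xFAD. Of its 15 subunits, 3 were called in Ulk1OV against WT, all lower, and 4 in 5xFAD;Ulk1OV against Ulk1OV, all higher. Atp5k had the smallest p in both, at -2.54 ± 0.33 (adjusted p = 0.0106) and 2.58 ± 0.33 (adjusted p = 0.0129). Without the library labelled 5xFAD;Ulk1OV replicate 3, complex I had 13 interaction calls above 0 and 0 below, and ATP synthase 5 and 0.

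Assembly factors outside the 33 were mixed. Of 4 for complex II, 1 was called above 0, Sdhaf4 (1.49 ± 0.26, adjusted p = 0.00684), which helps mature the flavoprotein subunit. Of 6 for complex III, 0 were called by edgeR; at an unadjusted p under 0.05 Uqcc2 (0.42 ± 0.15, adjusted p = 0.0845) and Uqcc3 (0.62 ± 0.23, adjusted p = 0.0944) stood above 0. Of 17 further complex IV factors tested, 4 were called above 0 and 1 below, with Coa3 at 0.66 ± 0.16 (adjusted p = 0.0172) and Cox14 at 0.59 ± 0.14 (adjusted p = 0.0173), which both act on newly made mt-Co1 protein. Among 3 further complex IV subunit genes tested, Ndufa4 was at 0.34 ± 0.14 (adjusted p = 0.128).

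Citric acid cycle enzymes and import proteins, which are mitochondrial but not of the chain, had medians near 0. Of 13 cycle enzymes, 0 were called above 0 and 1 below, Idh3g, a subunit of isocitrate dehydrogenase (-0.37 ± 0.10, adjusted p = 0.0324), a call that was lost without the library labelled 5xFAD;Ulk1OV replicate 3. Of 9 import and outer membrane genes, 0 were called by edgeR, with Tomm70a (-0.26 ± 0.10, adjusted p = 0.109) at the smallest p.

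Of 12 regulators of respiratory gene transcription, only Esrra was called, which encodes ERR alpha. It did not stand for the list: interactions were above 0 in 3 of the 12 and below 0 in 9, with a median of -0.16. In 5xFAD;Ulk1OV against 5xFAD, 2 were above 0 and 10 below. No call was made in that comparison or in 5xFAD against WT. Esrra measured 57.2, 57.5 and 52.2 CPM in WT, 46.4, 30.1 and 35.1 with 5xFAD, 32.8, 37.0 and 26.1 with Ulk1OV and 62.8, 59.8 and 53.0 with both. The 5xFAD and Ulk1OV libraries were all below the other 6. Esrra fell in Ulk1OV against WT (-0.80 ± 0.15, adjusted p = 0.0251), rose in 5xFAD;Ulk1OV against Ulk1OV (0.87 ± 0.15, adjusted p = 0.0160) and had an interaction of 1.45 ± 0.21 (adjusted p = 0.00412). These 3 calls held without the library labelled 5xFAD;Ulk1OV replicate 3, where the interaction was 1.55 ± 0.22 (adjusted p = 0.00274). Its part in the members' levels was not tested. Of the windows described above, the ETS letters were in 4 of the 7 interaction-called members that have one and in 5 of the other 16, and the ERR letters only in Sdhd.

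Bulk tissue mixes cell types, and fewer cells of a type cannot be told apart from less RNA per cell. The summed level of 6 neuron markers, all detected, was 5278 ± 318 CPM in WT, 5911 ± 274 with 5xFAD, 5907 ± 208 with Ulk1OV and 5031 ± 249 with both. Of these 6, 1 was called lower in Ulk1OV against WT (3.04% of all genes). In the interaction 1 was called above 0 and 1 below (6.8% and 5.96% of all genes). Summed levels of 4 pyramidal neuron markers were 4383 ± 413 CPM in WT, 4621 ± 1065 with 5xFAD, 4142 ± 449 with Ulk1OV and 4220.5 ± 547 with both. Those of 4 parvalbumin interneuron markers were 214 ± 18.6, 197 ± 24.1, 183 ± 19.2 and 201 ± 19.1 CPM in that order. In either list edgeR called 0 of 4 in each comparison. Fibroblast markers, 5 of 5 detected, had lower sums in 5xFAD and Ulk1OV than in most libraries of the other groups: 186 to 254 CPM in WT, 91.0 to 182 with 5xFAD, 104 to 144 with Ulk1OV and 129 to 260.0 with both, with 3 of 5 called in the interaction, all above 0, also without the library labelled 5xFAD;Ulk1OV replicate 3. Summed markers of mural cells, 6 of 7 tested, were at 118 to 170 CPM in WT, 69.6 to 127 with 5xFAD, 77.6 to 96.2 with Ulk1OV and 109 to 176 with both. Those of endothelium and blood were likewise at their highest mean in WT or 5xFAD;Ulk1OV, with 1 of 5 called above 0 in the interaction in each list. Other lists went differently. Astrocyte markers summed to 2285 ± 180 CPM in WT, 2655 ± 221 with 5xFAD, 2527 ± 250 with Ulk1OV and 2443 ± 161 with both. Interneuron markers were highest in Ulk1OV (1224 ± 54.5 CPM, against 974 ± 105 in WT). Of microglia and dentate granule cell markers, 1 in each list was called below 0 in the interaction. Without the library labelled 5xFAD;Ulk1OV replicate 3, 1 was called in the microglia list and 0 in the dentate granule cell list. No marker of these lists was at 0 in every library. Choroid plexus markers reached 6240 CPM in 1 WT library and 4198 CPM in 1 Ulk1OV library. The part of these cell types in the results above was not tested.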

How the data were processed

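Total RNA from hippocampal tissue was sequenced in 12 libraries, 3 per group. The deposited values are raw read counts per gene, 1 column per library. The submitters' processing notes name HISAT2, featureCounts, SAMtools, FastQC, Trim Galore and DESeq2, without versions, and the build mm10. Sources used here do not give the annotation or the strand setting. Library totals were 16149992 to 18547132 counts. Replicates differed by more than sampling noise (chi-square per degree of freedom 6.78 to 27.53), so none was counted as a copy of another.

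Counts were fitted with edgeR 4.0.16 (R 4.3.3; TMM, filterByExpr, quasi-likelihood test) over all 12 libraries with 1 mean per group, and p-values were adjusted by Benjamini-Hochberg over 17227 genes, with calls at 0.05. The 4 contrasts of groups and their interaction were tested, and the scripts were tested on simulated data. Alternatives were DESeq2 1.42.0, its size factors in edgeR, no filter, a replicate block, only the libraries compared, each library left out, and a loess correction (span 0.4) for GC content and transcript length. Lengths come from GENCODE M21 on GRCm38 and promoters from RefSeq.

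Values in every library are given for members called in any contrast and for the 3 smallest p per contrast. They are also given for restricted isoforms with their partners. Exceptions are Cox7c in 5xFAD;Ulk1OV and Cox5b in Ulk1OV. Each pathway list is given by counts, with up to 2 members of smallest p. Counts in the pathway and marker lists without the library labelled 5xFAD;Ulk1OV replicate 3 were added after seeing the data. The members and lists were chosen with earlier results of these data known.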

Additional observations from a re-analysis of the deposited data

Results flagged for a closer look

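In 8 genes the effect of 5xFAD with Ulk1 overexpression differed from that without it, by a test of the difference itself (the interaction in edgeR's quasi-likelihood fit, log2 scale, Benjamini-Hochberg adjustment over 17227 genes). In complex III these were Uqcrh at 0.94 (adjusted p = 0.00543), Uqcr11 at 1.26 (adjusted p = 0.00590), Uqcrfs1 at 0.76 (adjusted p = 0.00639) and Cyc1 at 0.59 (adjusted p = 0.0319). In complex II it was Sdhd at 0.67 (adjusted p = 0.00639). In complex IV these were Cox6b1 at 0.75 (adjusted p = 0.0172) and Cox6b2 at 2.03 (adjusted p = 0.00662), and among the assembly factors Cox11 at 1.09 (adjusted p = 0.0310). These 8 are 24.2% of the 33 members, where 12.8% of all genes were called. In each of the 8 genes all 5xFAD libraries lay below all WT libraries (9.05% of all genes). In 7 of them, all but Cyc1, all 5xFAD;Ulk1OV libraries lay above all 5xFAD libraries (10.7% of all genes). Low 5xFAD values also raise the interaction that picked these genes, so this separation is no independent support. Cyc1 was lost in 8 of 12 leave-outs and Cox11 in 6, and neither was called under the loess correction.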

How the results depend on the processing

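The 16 calls of members, over all comparisons, kept their direction under each alternative run. Those calls were picked for lying far from 0 for their error, and every run reuses the same libraries. Some genes also recur among them in comparisons that share groups. The kept direction is therefore no independent support. Of the members not called, 8 to 12 per comparison changed sign under at least 1 alternative. The median of Ulk1OV against WT went from -0.06 to 0.02 without Ulk1OV replicate 1. Members called in 5xFAD against WT went from 0 to 4 with DESeq2 (0.835% of the genes it tested) and 5 without the filter on low counts. In 5xFAD;Ulk1OV against 5xFAD they went from 0 to 7 with DESeq2 (5.45%), 1 with its size factors in edgeR and 6 without the filter. In Ulk1OV against WT and in 5xFAD;Ulk1OV against Ulk1OV, 8 were called without the filter in place of 4, and in the latter 1 with only the 6 libraries compared. DESeq2 called 6 in each, beside 11.8% and 12.2% of the genes it tested, where the main fit called 5.17% and 6.1%. In the interaction, DESeq2 called 12 (18.4% of the genes it tested), the fit without the filter 11 and the loess correction 11 (5.51%), in place of 8 (12.8%). Shares of all genes are not given here for the fits without the filter, with DESeq2 size factors, with the replicate block or with only 6 libraries. Those counts of members therefore cannot be set against all genes. Leaving out 1 library at a time gave 0 to 0, 0 to 5, 0 to 7, 0 to 8 and 5 to 13 calls for the 5 results in the order above. The shares of all genes called were 0% to 0.221%, 0% to 1.48%, 0% to 7.34%, 0% to 9.23% and 5.53% to 14.7% in the same order. Under the loess correction, the median over members moved from -0.17 to -0.11 in 5xFAD against WT, from 0.20 to 0.05 in 5xFAD;Ulk1OV against 5xFAD, from 0.11 to 0.06 in 5xFAD;Ulk1OV against Ulk1OV and from 0.26 to 0.11 in the interaction. The cause of these changes was not tested. Deviations of libraries with the same replicate number correlated at -0.183 to 0.216, and those with different numbers at -0.205 to 0.222. With 3 libraries per group, these values do not settle whether the numbers pair libraries. With a replicate block the counts were 0, 0, 5, 4 and 8. Cyc1 was added in Ulk1OV against WT and exchanged for Uqcr11 in 5xFAD;Ulk1OV against Ulk1OV. Depth limits the members near 1 CPM, such as Cox4i2 and Cox7a1, and 3 libraries per group limit all of them.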
